A study of Homo sapiens with 4 samples.

Results

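CDKN2A, CDKN2B and MTAP are 3 neighbouring genes on the short arm of chromosome 9, at 9p21, and were read here across the RNA sequencing libraries of HGC-27 cells. They were chosen by name, as genes that lie side by side, and all 3 were found among the 31907 gene names counted in at least 1 library. HGC-27 is a human gastric cancer (GC) cell line. The comparison covered 2 libraries of cells treated with phosphate-buffered saline (PBS) and 2 libraries of cells treated with 200 ng/ml of recombinant interleukin-17B (rIL-17B), and both treatments lasted 48 h. No genetic change or other agent is given for any group, both groups come from 1 cell line, and the labels do not say whether replicates came from separate cultures, so the p-values may measure technical spread alone. The study sequenced these cells to look for pathways behind the effect of rIL-17B on cancer stem cells, and the question here is the level of the locus and its difference between treatments.

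As background, CDKN2A and CDKN2B encode inhibitors of the cyclin-dependent kinases CDK4 and CDK6. The inhibitor p16INK4a from CDKN2A and the inhibitor p15INK4b from CDKN2B keep these kinases from phosphorylating the retinoblastoma protein RB, which in its active state holds back the E2F factors that switch on DNA replication genes. CDKN2A has another promoter and first exon that give the unrelated protein ARF, an inhibitor of the ubiquitin ligase MDM2. MTAP encodes methylthioadenosine phosphorylase, which recycles a by-product of polyamine synthesis to adenine and methionine. The 3 genes are often deleted together in tumours, and cells that lose MTAP accumulate a metabolite that inhibits the arginine methyltransferase PRMT5.

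The depth and the likeness of the libraries bear on every value. Library totals lay between 12888029 and 17555879 counts, so that 3 counts, the smallest level taken as shown, stood for 0.171 to 0.233 CPM, the count scaled to a common library total. rIL-17B replicate 1 stood apart from the other libraries. Of 16361 genes tested, 3381 (20.7%) differed at least 2-fold between it and PBS replicate 1, against 110 (0.672%) between the PBS libraries and 84 (0.513%) between rIL-17B replicate 2 and PBS replicate 1. FN1, the gene of fibronectin, shows the gap and was chosen after its values were seen. Its counts were 526938 and 418314 in the PBS libraries, and 2172 and 481910 in rIL-17B replicates 1 and 2. All 10 mesenchymal marker genes were below both PBS libraries in each rIL-17B library, and their summed level was 55041 and 54107 CPM under PBS, and 1231 and 46055 under rIL-17B. Of the epithelial markers, KRT8, KRT18 and KRT7, genes of the keratins of simple epithelia, were abundant, with KRT8 between 601 and 1457 CPM, whereas CDH1, the gene of E-cadherin, stayed under 1 CPM in every library. Of 11 gastric markers 8 had a count, and TFF1, GKN2 and PGC had none. TFF2 and GKN1 stayed under the limit of 3 counts in every library. SOX2 had the most, with 1201 and 1489 counts under PBS, and 159 and 993 under rIL-17B. All 5 gastric markers that were tested had a log2 fold change below 0. The library protocol mentions monocytes, and the 10 monocyte markers summed to 8.55 to 13.6 CPM, with CD68 at 0 in both PBS libraries and LYZ at 0 in rIL-17B replicate 1. CSF1R made up most of that sum in rIL-17B replicate 1, with 62 and 72 counts under PBS, and 119 and 108 under rIL-17B, whereas PTPRC and S100A9 had between 22 and 47 counts in each other library and 0 in that one. What this library holds was not tested, and in such bulk samples fewer cells of a kind and less RNA per cell cannot be told apart. Each value of the locus is therefore given per library, and each comparison with and without rIL-17B replicate 1.

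The 3 genes lie within 206821 bases of chromosome 9 (GENCODE 29 on GRCh38, the build of the files). MTAP (ENSG00000099810.19) runs from 21802543 to 21937651 on the plus strand. CDKN2A (ENSG00000147889.17) follows after 30.1 kb, from 21967753 to 21995301 on the minus strand. CDKN2B (ENSG00000147883.10) follows after a further 7.60 kb, from 22002903 to 22009363, also on the minus strand. The long noncoding RNA gene CDKN2B-AS1 (ENSG00000240498.7), known as ANRIL and described as a recruiter of Polycomb repressors to the locus, runs on the plus strand from 21994778 to 22121097, across the whole of CDKN2B and over the start of CDKN2A. It shares 341 bases of exon with CDKN2A, 7.88% of the CDKN2A exon bases, and none with CDKN2B. The use of strand in the counting is not given in the sources used here, so reads from these 341 bases cannot be assigned to either gene. MTAP shares 257 exon bases (1.76%) with the antisense gene AL359922.2. On its own strand it shares 684 (4.68%) with the pseudogene ERVFRD-3 and 460 (3.15%) with AL359922.1, both with no count in any library.

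A gene count cannot tell p16INK4a from ARF. Their transcripts in GENCODE 29, CDKN2A-201 of 1218 bases and CDKN2A-214 of 1283 bases, have 797 bases in common, 65.4% of the first and 62.1% of the second. Both first exons are joined to the same second exon, but the ARF coding sequence enters it after 193 coding bases, 1 more than a whole number of codons, and the p16INK4a coding sequence after 150, with 0 left over. The same bases are thus read in different frames and give different proteins. The first exons, the only bases that belong to 1 of these transcripts, were not counted apart, and every CDKN2A value below is the sum of both.

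CDKN2A and CDKN2B are near copies of each other in part of their second exons, which bears on how their reads could be split. Of 368 aligned coding bases of CDKN2A-201 and CDKN2B-201, 317 (86.1%) were identical. The longest run without a difference was 80 bases, all coding. Of the 50-base windows over the annotated transcripts, 31 of 4550 (0.681%) in CDKN2A and 31 of 4051 (0.765%) in CDKN2B occur in both genes. In MTAP 1152 of 14855 windows (7.75%) occur in another gene, mostly ERVFRD-3 and AL359922.1, which had no count here. Both overlap MTAP on its own strand and share exon bases with it, so these windows need not be copies elsewhere. How reads with more than 1 match were counted is not given in the sources used here.

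CDKN2A was the highest of the 3 genes. Its counts were 2893 and 2475 in PBS replicates 1 and 2, and 4633 and 3777 in rIL-17B replicates 1 and 2. As CPM of the library total this was 182 CPM (95% Poisson interval 175 to 189) and 192 CPM (185 to 200) with PBS, and 317 CPM (308 to 326) and 215 CPM (208 to 222) with rIL-17B. Both rIL-17B libraries lay above both PBS libraries, with replicate 1 far above the other libraries and replicate 2 nearer to PBS. These intervals cover counting error only, and they may be too narrow even for that, because PCR copies of a molecule are counted again.

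CDKN2B came next. Its counts in the same order of libraries were 1076, 780, 1160 and 1216. The levels were 67.7 CPM (63.7 to 71.8) and 60.5 CPM (56.3 to 64.9) with PBS, and 79.4 CPM (74.9 to 84.1) and 69.3 CPM (65.4 to 73.3) with rIL-17B. Both rIL-17B libraries lay above both PBS libraries, but the counting intervals of PBS replicate 1 and rIL-17B replicate 2 overlapped.

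MTAP was lowest of the 3, and its counts in that order were 701, 506, 876 and 754. The levels were 44.1 CPM (40.9 to 47.5) and 39.3 CPM (35.9 to 42.8) with PBS, and 59.9 CPM (56.0 to 64.0) and 42.9 CPM (39.9 to 46.1) with rIL-17B. The groups overlapped, since rIL-17B replicate 2 lay between the PBS libraries, and rIL-17B replicate 1 alone was above them. CDKN2B-AS1, the antisense RNA of the locus, was rarer, with 45, 45, 68 and 56 counts, or 2.83, 3.49, 4.65 and 3.19 CPM. Its groups overlapped as those of MTAP did.

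Levels of different genes were compared per kilobase of exon, since longer transcripts can give more reads. Over the union of annotated exons (4.33 kb for CDKN2A, 4.06 kb for CDKN2B and 14.6 kb for MTAP), CDKN2A had 42.0, 44.4, 73.2 and 49.7 CPM per kb in PBS replicates 1 and 2 and rIL-17B replicates 1 and 2. CDKN2B had 16.7, 14.9, 19.6 and 17.1 CPM per kb on this scale. MTAP had 3.02, 2.69, 4.10 and 2.94. The order CDKN2A, CDKN2B, MTAP held in all 4 libraries, with no overlap between genes. Against all tested genes with an annotated length, CDKN2A stood at the 94.9th to 97.0th percentile, CDKN2B at the 82.1st to 84.7th and MTAP at the 40.3rd to 52.4th. Over 1 annotated transcript each (CDKN2A-214 of 1283 bases, CDKN2B-201 of 3911 and MTAP-201 of 6122), the levels lay between 142 and 247 CPM per kb for CDKN2A, 15.5 and 20.3 for CDKN2B and 6.41 and 9.79 for MTAP. The order was again the same in each library. None of the 3 genes was near the limit of 3 counts, so both inhibitor genes and MTAP were transcribed in these cells with either treatment.

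The treatments were compared in edgeR's quasi-likelihood test over all 16361 genes, on counts normalized by TMM, which scales libraries so that most genes do not differ. None of the 3 genes passed an adjusted p of 0.05, and neither did any other gene (0%). An unadjusted p under 0.05 was reached by 226 genes (1.38%), none of them CDKN2A, CDKN2B or MTAP, and DESeq2 gave 0 genes after adjustment and 457 before it. With 2 libraries a group, the smallest two-sided p of an exact permutation test is 0.333, so none was run for single genes.

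On the TMM scale the CPM of CDKN2A was 188 and 196 under PBS, and 296 and 220 under rIL-17B. The group means were 192 ± 5.74 and 258 ± 53.6 CPM (SD, n = 2 libraries each). The log2 fold change was 0.43 (standard error, SE, 0.19, 95% interval -0.11 to 0.97, adjusted p = 0.661 by edgeR with Benjamini-Hochberg adjustment), a 1.34-fold difference with an interval from 0.925 to 1.95. The gap between the rIL-17B libraries was larger than the gap between the group means.

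The CPM of CDKN2B on the same scale was 69.9 and 61.8 under PBS, and 74.1 and 70.9 under rIL-17B. Its group means of 65.8 ± 5.74 and 72.5 ± 2.28 CPM gave a log2 fold change of 0.14 (SE 0.11, 95% interval -0.19 to 0.47, adjusted p = 0.661 by edgeR). The difference between the group means was smaller than that between the PBS libraries.

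For MTAP it was 45.5 and 40.1 under PBS, and 56.0 and 44.0 under rIL-17B. Its group means were 42.8 ± 3.86 and 49.96 ± 8.49 CPM, with a log2 fold change of 0.22 (SE 0.17, 95% interval -0.28 to 0.72, adjusted p = 0.661 by edgeR). For CDKN2B-AS1 the log2 fold change was 0.23 (SE 0.32, adjusted p = 0.736 by edgeR). The intervals of all 4 genes hold 0. As folds, that of CDKN2A reaches 1.95 and that of CDKN2B-AS1, on few counts, 2.24.

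Without a test, 2 of the 3 genes, CDKN2A and CDKN2B, had both rIL-17B libraries above both PBS libraries on the TMM scale, against 28.5% of all tested genes, and none had both below, against 30.4%. On library totals the share of all genes with both above was 31.5%. Relative to the PBS mean, rIL-17B replicate 1 was 1.54-fold higher for CDKN2A, 1.13-fold for CDKN2B and 1.31-fold for MTAP. In rIL-17B replicate 2 the same folds were 1.15, 1.08 and 1.03. Every fold was above 1, and the larger ones were in the library that stood apart. The median log2 ratio of all tested genes in rIL-17B replicate 1 was -0.04 on the TMM scale and 0.08 on library totals, a shift that raises every gene alike on the latter scale.

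Without rIL-17B replicate 1, the log2 fold change of CDKN2A was 0.20 (adjusted p = 0.236 by edgeR), that of CDKN2B 0.11 (0.728) and that of MTAP 0.04 (0.944). In that comparison 504 of 17103 genes (2.95%) passed, none of them in the locus. Without rIL-17B replicate 2, when only the library that stands apart is set against PBS, the values were 0.63 for CDKN2A (adjusted p = 2.2e-13 by edgeR), 0.17 for CDKN2B (0.144) and 0.38 for MTAP (0.00117). There 9489 of 17223 genes (55.1%) passed, 3989 of them higher (23.2%), so that CDKN2A and MTAP were 2 of these 3989. Both of these fits compare 1 rIL-17B library with 2 PBS libraries, and their calls assume that it varies as the PBS libraries do.

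The proportions of the genes within a library do not depend on its depth or scaling. The count of CDKN2A per count of CDKN2B was 2.69 (95% exact interval 2.51 to 2.89) and 3.17 (2.93 to 3.44) in the PBS libraries, and 3.99 (3.74 to 4.26) and 3.11 (2.91 to 3.32) in rIL-17B replicates 1 and 2. rIL-17B replicate 1 had the highest ratio and PBS replicate 1 the lowest, each with an interval apart from all others. The PBS libraries thus differed from each other beyond these intervals, which PCR copies may make too narrow. rIL-17B replicate 2 lay between the PBS libraries. CDKN2A per MTAP was 4.13, 4.89, 5.29 and 5.01 in the same order, and both rIL-17B libraries lay above both PBS libraries. The interval of PBS replicate 2, 4.44 to 5.39, overlapped those of both rIL-17B libraries, so the order against that library is within counting error. The interval of PBS replicate 1, 3.80 to 4.49, lay below those of both rIL-17B libraries (4.92 to 5.69 and 4.63 to 5.42).

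CDKN2B per MTAP was 1.53 and 1.54 in the PBS libraries and 1.32 and 1.61 in rIL-17B replicates 1 and 2. Here rIL-17B replicate 1 was the lowest library, with an interval of 1.21 to 1.45 that overlapped those of the PBS libraries. Of the counts on the 3 genes together, CDKN2A took 61.9% and 65.8% with PBS and 69.5% and 65.7% with rIL-17B.

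**Figure D1:**
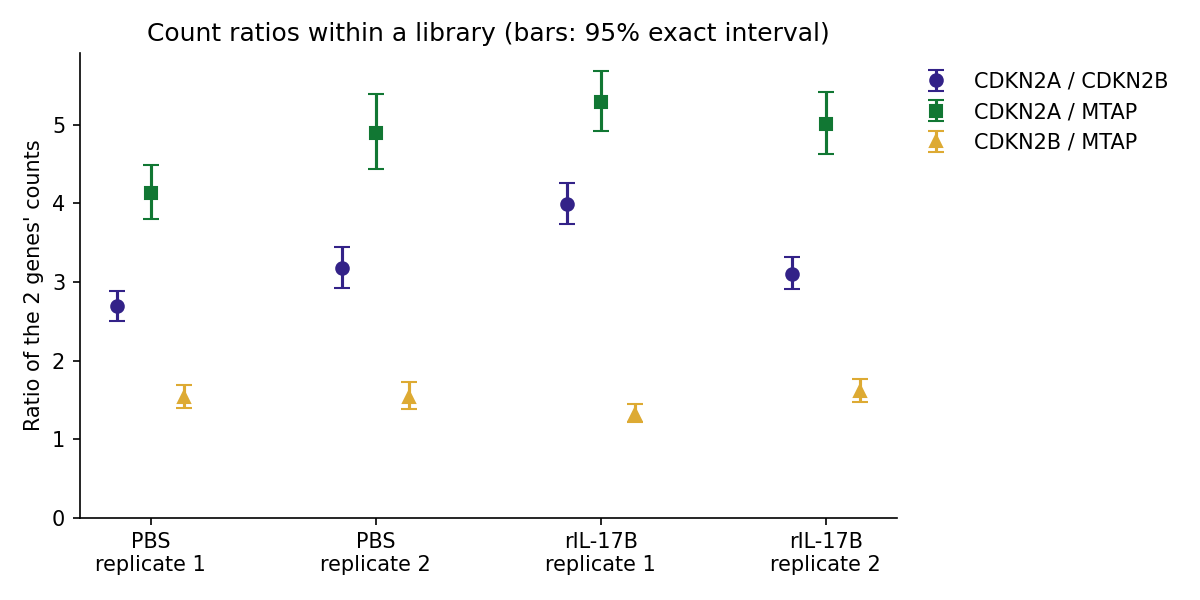
Ratio of the counts of each pair of the 3 genes within each library on an axis from 0, with bars for the 95% exact interval. The ratio of CDKN2A to CDKN2B is 3.99 in rIL-17B replicate 1 and between 2.69 and 3.17 in the other libraries, and the ratio of CDKN2B to MTAP stays between 1.32 and 1.61.

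The patterns most like those of the 3 genes were sought among all tested genes, by the largest absolute difference in centred log2 TMM CPM over the 4 libraries. Nearest to CDKN2A were ABCA7, a lipid transporter, DHX16, an RNA helicase of splicing, and DDX54, another RNA helicase, with differences of 0.0133 to 0.0143. The CPM of ABCA7 was 48.6 and 50.3 under PBS, and 75.8 and 56.0 under rIL-17B. Nearest to CDKN2B were FAT4, CALM2 and TCTN3, and nearest to MTAP were PDZD11, AL590428.1 and NAF1. The 3 genes were not among each other's nearest patterns on this measure, but most of the 16361 tested genes were farther away. For CDKN2A, MTAP ranked 3331 and CDKN2B 5329 among the tested genes. For CDKN2B, MTAP ranked 3269 and CDKN2A 7530, and for MTAP, CDKN2B ranked 3029 and CDKN2A 4405. With 4 libraries many genes share a pattern, so the ranks describe these libraries and no more.

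The neighbours of the locus were followed over 5 Mb on either side. Of 132 annotated genes there, 63 had a count, and 29 besides the 3 passed the filter on low counts. IFNA1, IFNA6, IFNA10, IFNA16 and IFNA21, interferon alpha genes, had at most 3 counts in any library, so no difference in them was detectable at this depth. None of the 29 passed the test (0% of all genes), and 9 of them (31.0%) had both rIL-17B libraries above both PBS libraries and 8 (27.6%) both below, against 28.5% and 30.4% of all tested genes. In rIL-17B replicate 1 the median log2 ratio of the 29 to the PBS mean was -0.15, beside -0.04 for all tested genes. Of the 29, 6 were at least 2-fold lower and 0 at least 2-fold higher, with 0.5 CPM added to each value. Of all tested genes, 20.7% and 21.8% differed at least 2-fold in either direction between this library and PBS replicates 1 and 2. The share of all genes in each direction against the PBS mean was not counted, so the split of 6 and 0 has none beside it. In rIL-17B replicate 2 none of the 29 differed 2-fold, with log2 ratios between -0.67 and 0.57. The 3 genes, at 0.62, 0.17 and 0.38 in replicate 1, lay on the upper side of their neighbourhood.

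Nearest to the locus, AL359922.2, the noncoding gene antisense to MTAP, had counts of 19 and 11 under PBS, and 32 and 31 under rIL-17B. MIR31HG, the host gene of miR-31 at 242.9 kb from the locus, had 32, 20, 14 and 27 counts, PBS first and then rIL-17B. IFNE, an interferon gene of epithelia at 320.2 kb, had 34, 21, 26 and 42. Of these, AL359922.2 alone had both rIL-17B libraries above both PBS libraries, and its log2 fold change was 0.86 on few counts. Reads from the 257 exon bases that AL359922.2 shares with MTAP cannot be assigned to either gene, since the use of strand is not given.

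Among the protein-coding neighbours, KLHL9, which encodes an adaptor of a ubiquitin ligase, had 40.9 and 44.2 TMM CPM with PBS and 33.5 and 40.6 with rIL-17B. FOCAD, the gene of focadhesin, had 39.8 and 34.1 with PBS and 49.1 and 42.4 with rIL-17B. MLLT3, which encodes a reader of acylated histones, had 20.1 and 19.5 with PBS and 30.9 and 22.9 with rIL-17B. FOCAD and MLLT3 thus had both rIL-17B libraries above both PBS libraries, as CDKN2A and CDKN2B did, whereas KLHL9 had both below.

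HACD4, which encodes a dehydratase of very long fatty acid synthesis, had counts of 203 and 169 under PBS, and 15 and 193 under rIL-17B. ADAMTSL1, farther out and chosen after its values were seen, had counts of 353 and 316 under PBS, and 0 and 327 under rIL-17B. Both were low or without a count in rIL-17B replicate 1 alone, a library in which CDKN2A, CDKN2B and MTAP were at their highest. A list of 37 neighbours written by name gave 24 genes with a count and 16 tested, 9 with a log2 fold change above 0 and 7 below. The further named neighbours DMRTA1, LINC01239, AL158206.1 and ACER2 had between 7 and 101 counts in each library.

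**Figure D2:**
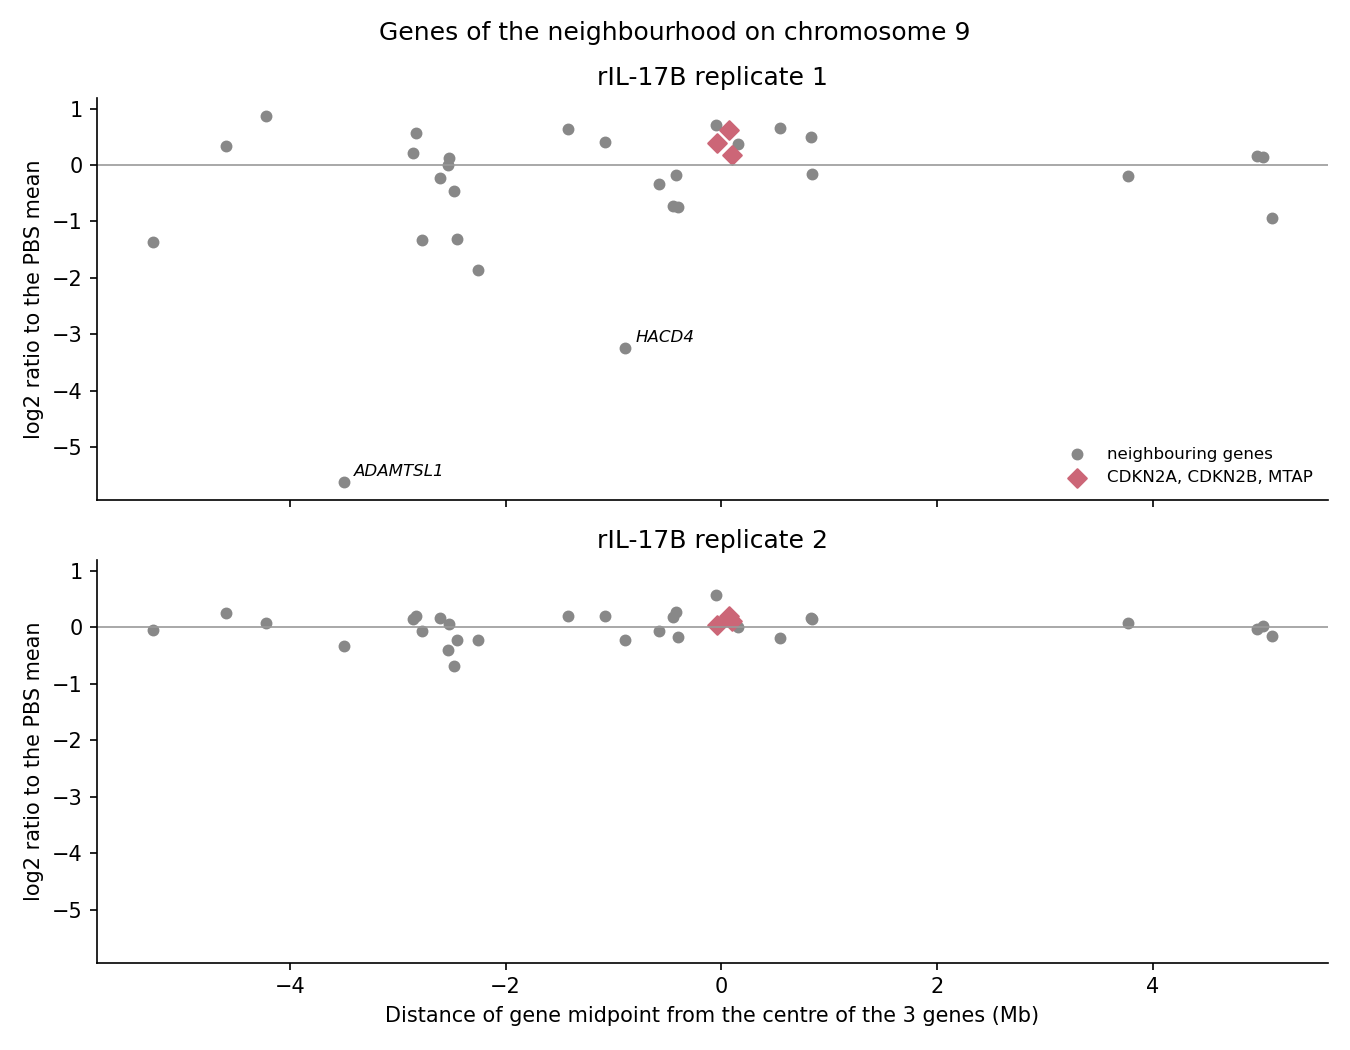
log2 ratio of each tested gene within 5 Mb to the mean of the PBS libraries (0.5 CPM added), against the distance of its midpoint from the centre of the 3 genes in Mb, for each rIL-17B library. In replicate 1, 6 neighbours lie at -1 or lower, among them HACD4 and ADAMTSL1, and the 3 genes lie above 0, whereas in replicate 2 all genes lie between -0.67 and 0.57.

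Genes that act with the 3 were then read from lists written by hand. Of all the genes in them, TK1 alone had an unadjusted p under 0.05 in edgeR's test. The first list held CDK4, CDK6, the D-type cyclins, RB1 and its relatives and the other kinase inhibitors, 13 genes, all of them tested and none passing. Of these, 6 had a log2 fold change above 0 and 7 below, with a median of -0.09 beside -0.03 for all tested genes. In 3 (23.1%) both rIL-17B libraries were above both PBS libraries and in 4 (30.8%) below, against 28.5% and 30.4% of all tested genes. CDK4, a kinase that p16INK4a and p15INK4b bind, had 98.8 and 103 TMM CPM with PBS and 136 and 112 with rIL-17B. Both rIL-17B libraries were above both PBS libraries, with a log2 fold change of 0.29 (SE 0.14, adjusted p = 0.661 by edgeR).

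CDK6, the other kinase they bind, had 179 and 204 TMM CPM with PBS and 164 and 187 with rIL-17B, and RB1 had 92.2 and 84.9 with PBS and 77.3 and 87.6 with rIL-17B. Both genes had overlapping groups. CCND3, which encodes cyclin D3, had 170 and 164 with PBS and 257 and 186 with rIL-17B, and CDKN2C, the gene of the related inhibitor p18INK4c, had 77.8 and 76.9 with PBS and 102 and 82.4 with rIL-17B. In both, as in CDKN2A, rIL-17B replicate 1 was highest and replicate 2 next. The cyclin gene CCND1 and the inhibitor gene CDKN2D of the same list had both rIL-17B libraries below both PBS libraries. RBL1, the gene of the RB relative p107, had a log2 fold change of 0.28 (adjusted p = 0.661 by edgeR).

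The E2F targets, genes of DNA replication that RB holds back, had log2 fold changes of 1 sign. All 16 were tested and none passed, 16 had a log2 fold change above 0, and the median was 0.53. In 15 of them (93.8%) both rIL-17B libraries were above both PBS libraries, against 28.5% of all tested genes. Their median log2 ratio to the PBS mean was 0.77 in replicate 1 of rIL-17B and 0.22 in replicate 2. CDKN2A, the gene of an inhibitor upstream of these targets, and 15 of the 16 targets were above both PBS libraries in both rIL-17B libraries. The exception was CCNE1, the gene of cyclin E1, with 10.2 and 10.8 TMM CPM with PBS and 13.2 and 10.1 with rIL-17B.

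TK1, the gene of thymidine kinase, had 80.5 and 80.0 TMM CPM with PBS and 164 and 107 with rIL-17B, giving a log2 fold change of 0.76 (SE 0.25, unadjusted p = 0.0416, adjusted p = 0.661 by edgeR). CDC6, which loads the replication helicase, had 95.9 and 92.7 with PBS and 174 and 116 with rIL-17B. TK1 and CDC6 were also the 2 genes of this list that passed without rIL-17B replicate 1, with adjusted p of 0.00102 and 0.0385 by edgeR, both higher, against 0.643% of all genes tested there. E2F3, a member of the E2F family itself, had a log2 fold change of 0.32 and CDC25A, a phosphatase that activates cyclin-dependent kinases, 0.58 (adjusted p = 0.661 each by edgeR).

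The ARF side of the locus was read from 24 genes, MDM2, other partners of ARF and genes of the stress response downstream of MDM2, all tested and none passing. A log2 fold change below 0 was found for 16 and above 0 for 8, with a median of -0.24. In 13 (54.2%) both rIL-17B libraries were below both PBS libraries, against 30.4% of all tested genes. Relative to the PBS mean, the median of the list was -0.48 (log2) in rIL-17B replicate 1 and -0.06 in replicate 2.

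MDM2, which encodes the ligase that ARF inhibits, had 102 and 95.8 TMM CPM with PBS and 64.8 and 100.5 with rIL-17B. CDKN1A, which encodes the kinase inhibitor p21, had 359 and 352 with PBS and 63.8 and 309 with rIL-17B. The low MDM2 value was in rIL-17B replicate 1 alone, where CDKN2A was highest, whereas CDKN1A was below both PBS libraries in both rIL-17B libraries.

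BAX, a promoter of apoptosis, had 70.9 and 76.5 TMM CPM with PBS and 41.7 and 60.5 with rIL-17B. NPM1, which encodes nucleophosmin, a nucleolar partner of ARF, had 933 and 851 with PBS and 1351 and 1018 with rIL-17B. The log2 fold changes were -0.53 for BAX, 0.41 for NPM1, -0.37 for SESN1, a stress sensor of the sestrin family, and -1.04 for BBC3, the gene of the apoptosis inducer PUMA (adjusted p = 0.661 each by edgeR). BAX, SESN1 and BBC3 had both rIL-17B libraries below both PBS libraries, and NPM1 both above.

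Polycomb proteins and other known regulators of the locus made up 21 genes, all tested and none passing. Of these, 9 had a log2 fold change above 0 and 12 below, with a median of -0.05, and on library totals 11 were above and 10 below. Both rIL-17B libraries were above both PBS libraries in 8 and below in 8. EZH2, the histone methyltransferase of Polycomb, had 80.3 and 73.7 TMM CPM with PBS and 135 and 92.3 with rIL-17B. CBX2, a Polycomb reader of that mark, had 41.8 and 47.9 with PBS and 85.4 and 54.1 with rIL-17B. EED, a partner of EZH2, and ID1, an inhibitor of transcription factors that activate CDKN2A, had log2 fold changes of 0.39 and 0.41 (adjusted p = 0.661 each by edgeR). These 4 genes, taken by the smallest p of the list, include repressors of the locus. They were above both PBS libraries in both rIL-17B libraries, as was CDKN2A. The Polycomb genes CBX7, PCGF2 and RNF2, named after their values were seen, were among the 8 with both rIL-17B libraries below.

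KDM6B, the demethylase that removes the Polycomb mark, had 37.1 and 47.6 TMM CPM with PBS and 14.4 and 31.5 with rIL-17B. It was named because it was the 1 gene of this list that passed without rIL-17B replicate 1, where it was lower (log2 fold change -0.42, adjusted p = 0.0234 by edgeR, against 2.3% of all genes called lower there). CCND2, the gene of cyclin D2 in the first list, was named in the same way. It had 51.6 and 68.8 TMM CPM with PBS and 0.575 and 39.6 with rIL-17B (log2 fold change -0.60 without replicate 1).

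The genes around MTAP, those of methionine salvage, polyamine synthesis and PRMT5 with its partners, also had log2 fold changes of 1 sign. All 17 were tested and none passed, 17 had a log2 fold change above 0, and the median was 0.29. In 12 (70.6%) both rIL-17B libraries were above both PBS libraries, against 28.5% of all tested genes. Relative to the PBS mean, the median of the list was 0.44 (log2) in rIL-17B replicate 1 and 0.10 in replicate 2, beside 0.38 and 0.04 for MTAP itself.

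ODC1, which encodes the first enzyme of polyamine synthesis, had 230.5 and 211 TMM CPM with PBS and 359 and 256 with rIL-17B. ADI1, which acts downstream of MTAP in methionine salvage, had 104 and 97.7 with PBS and 137 and 113 with rIL-17B. PRMT5 had 24.9 and 28.8 with PBS and 33.4 and 25.2 with rIL-17B. ODC1 and ADI1 had both rIL-17B libraries above both PBS libraries, but the groups of PRMT5 overlapped, as did those of MTAP. CLNS1A, a PRMT5 partner, and AHCY, which clears S-adenosylhomocysteine, had log2 fold changes of 0.38 and 0.37 beside 0.48 for ODC1 (adjusted p = 0.661 each by edgeR).

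**Figure D3:**
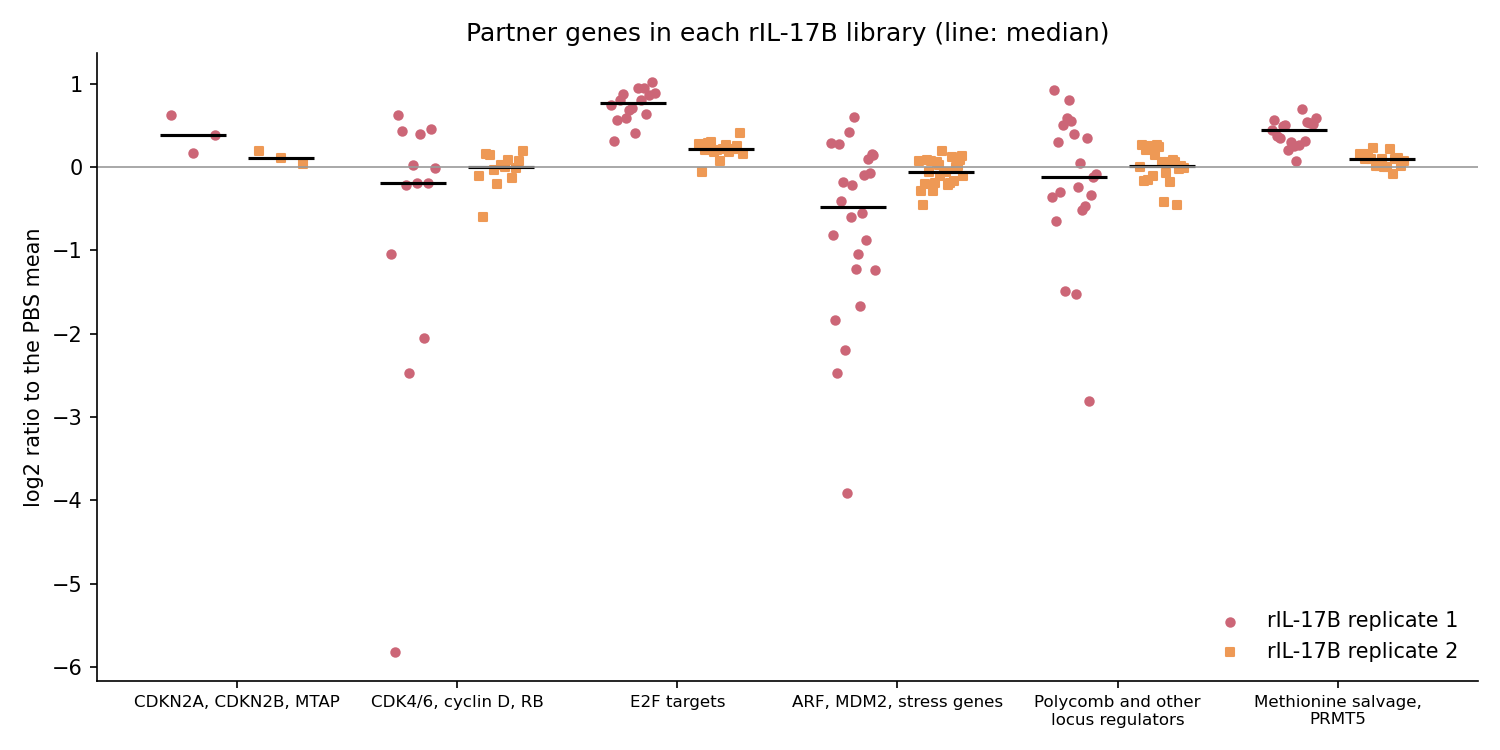
log2 ratio of each tested gene of the 3 genes and of the lists to the mean of the PBS libraries (0.5 CPM added), for rIL-17B replicate 1 (circles) and replicate 2 (squares), with lines for the medians. The medians of the E2F targets are 0.77 and 0.22 and those of the methionine list 0.44 and 0.10, while the ARF and MDM2 list has medians of -0.48 and -0.06 and a wide spread in replicate 1.

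Across these lists the libraries kept 1 order of size. The median of each list was farther from 0 in rIL-17B replicate 1 than in replicate 2, as for CDKN2A, CDKN2B and MTAP. The mesenchymal markers had the same order, at a median log2 ratio of -3.29 in replicate 1 and -0.24 in replicate 2, and the 8 tested epithelial markers had medians of 0.51 and 0.23. Among the latter, KRT8 had log2 ratios of 1.13 and 0.37 in replicates 1 and 2, KRT19 of -2.73 and 0.06 and CLDN4 of -0.30 and -0.33. Their part in the values of the locus was not tested.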

How the data were processed

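4 libraries of HGC-27 cells were made by Smart-seq2, in which an oligo-dT primer starts reverse transcription and PCR amplifies the cDNA. The authors deposited raw counts of reads per gene name, without normalization. The submitters' processing notes name the build hg38 and the tools HISAT2 2.1.0, Bowtie2 2.2.3, TopHat2 and HTSeq 0.6.0, with no role or order, and the annotation, the use of strand and the treatment of multiply matched reads are not given in the sources used here. An oligo-dT primer favours polyadenylated RNA.

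Names absent from a library were set to 0 counts. Between 22 and 25 names per library that had become digits (0.228% to 0.244% of counts) were left out, and 83 to 98 names that appeared repeatedly with an equal count were kept once. Of 31907 names, 97.8% matched 1 gene of GENCODE 29. CPM is the count scaled by the library total. Tests used edgeR 4.0.16 (R 4.3.3; TMM, factors 0.97 to 1.07, filterByExpr, quasi-likelihood F test, Benjamini-Hochberg adjustment over 16361 genes, threshold 0.05, two-sided). The fit was tested on simulated data with the same spread for all genes and no library that stands apart. It therefore does not show how the fit behaves with a library such as rIL-17B replicate 1. Poisson and exact binomial intervals are at 95%, cover counting error only and may be too narrow, since PCR copies are counted. Alternatives were DESeq2 1.42.0, a replicate block, upper-quartile normalization, no filter, leaving out each library, and library totals only, the last added after seeing the data.

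The 3 genes and the lists, written by hand from general knowledge, were chosen with earlier results of these data known. The rule for named genes took the 3 genes, up to 12 neighbours (those overlapping the locus or with a mean of at least 1 CPM, nearest first), the 4 smallest p of each list plus CDK4, CDK6, RB1, MDM2, CDKN1A, PRMT5 and 1 gene not reported here, and the 3 most alike patterns per gene. Sequences are not reported here. Tables and figures were made with Python 3.11.15.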

Additional observations from a re-analysis of the deposited data

How the results depend on the processing

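The log2 fold changes of CDKN2A, CDKN2B and MTAP stayed above 0 in all 27 alternative values. With DESeq2, the replicate block, upper-quartile normalization, no filter and library totals only, they lay between 0.41 and 0.51, 0.13 and 0.21, and 0.21 and 0.30, with adjusted p between 0.658 and 0.853. Fitted with a replicate block, they were 0.41, 0.14 and 0.22, and 0 genes passed, 173 of all genes having an unadjusted p under 0.05 in edgeR. Same-numbered libraries deviated together with a correlation of 0.0815 across genes. Since rIL-17B replicate 1 stands apart, this value cannot show whether same-numbered libraries share a culture or day. The block had no call to change, because 0 genes passed with or without it. Leaving out 1 library moved CDKN2A between 0.20 and 0.63, CDKN2B between 0.05 and 0.23 and MTAP between 0.036 and 0.38, and CDKN2A and MTAP passed in 1 of these 4 fits, that without rIL-17B replicate 2 (0.63 and 0.38). Over the same fits the count of genes passing lay between 0 and 9489, of E2F targets between 0 and 15, of the ARF and MDM2 list between 0 and 17, of the regulators between 0 and 16, of the methionine list between 0 and 14, of the 9p21 neighbours between 0 and 9 and of the CDK and RB list between 0 and 9. The upper end of each range came from the fit without rIL-17B replicate 2, in which 55.1% of all genes passed. The tested genes in that fit numbered 16, 24, 21, 17, 16 and 13 for these lists, in the order given. Its 1 rIL-17B library is the one that stands apart, so these counts are not read as results about the lists. The median of the regulators turned from -0.05 to 0.02 on library totals and 0.01 without rIL-17B replicate 1. That of the 9p21 neighbours turned from 0.08 to -0.01 without rIL-17B replicate 1 and -0.03 without replicate 2. Of 84 alternative values in all, the 13 that changed came from leaving out a library. With 2 libraries a group, the difference of CDKN2A, between means of 192 and 258 TMM CPM, is within the spread between the rIL-17B libraries (296 and 220). The PBS libraries (188 and 196) lay closer together, and rIL-17B replicate 1 is the library that stands apart. Counting error is small at 506 counts or more.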
